A study of Mus musculus with 16 samples.

Results

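Transsulfuration and glutathione metabolism are described here through 10 enzymes, which were taken by gene symbol, with earlier results of these data known. *Cbs* and *Cth* carry out transsulfuration, *Gclc*, *Gclm* and *Gss* make glutathione, *Gsr*, *Gpx1* and *Gpx4* recycle and use it, *Chac2* breaks it down, and *Ggct* acts on products of its breakdown. All 10 were found among the 55416 genes of the count table.

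RNA was sequenced from erythroblasts sorted by Ter119 and CD71 from mouse foetal livers at E13.5, at an early (S1) and a later (S3, basophilic) stage. The embryos were *Nprl3*+/+ (WT, n = 4, 2 male and 2 female), *Nprl3*+/- (Het, n = 2, both male) and *Nprl3*-/- (KO, n = 2, 1 male and 1 female), untreated, and each gave 1 library per stage, which makes 16 libraries. The KO allele is a constitutive deletion of the *Nprl3* promoter, present in every cell of the embryo and not only in the erythroid lineage, with the α-globin enhancers inside the gene left in place, in mice backcrossed to C57BL/6J. *Nprl3* encodes a subunit of GATOR1, which restrains the growth kinase complex mTORC1 when amino acids are scarce.

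In transsulfuration, CBS joins homocysteine to serine and CTH splits the product to release cysteine, the amino acid that limits glutathione synthesis in most cells. Glutamate-cysteine ligase, made of the catalytic subunit GCLC and the modifier GCLM, joins cysteine to glutamate, and GSS then adds glycine. Glutathione peroxidases spend glutathione on peroxides, glutathione reductase restores it with NADPH, and red cells depend on this cycle because they carry oxygen and iron.

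Each S1 library held 23331156 to 36035368 counts and each S3 library 20666044 to 37609502, of which globin genes took 0.0738% to 1.07% and 10.0% to 11.9%. The labels' tissue field names an embryonic stem cell line, but the titles name foetal liver. The summed level of 6 stem cell markers, among them *Pou5f1* and *Nanog*, was between 0 and 0.110 CPM (counts scaled to a common library size after TMM normalization), and *Sox2*, *Zfp42* and *Esrrb* had no count in any library. The summed level of 9 erythroid markers was 1458 to 3612 CPM at S1, and at S3 it was 57536 to 76535 CPM in WT, 63297 and 69707 CPM in Het and 51060 and 57259 CPM in KO, both KO libraries being below all WT libraries. *Nprl3* was at 21.02 to 33.8 CPM in WT, 12.4 and 12.6 CPM in Het and 0.309 and 0.657 CPM in KO at S1. At S3 it was at 143 to 214 CPM in WT and still at 110 and 117 CPM in KO, where the study describes enhancer-derived transcripts that share its exons, so the S3 count does not check the deletion. Markers of other cells differed between groups. The summed neutrophil markers (9 genes) were at 120 to 1280 CPM in WT, 1520 and 1535 CPM in Het and 1573 and 1651 CPM in KO at S1, and at 1.11 to 13.7 CPM in all S3 libraries. The summed hepatoblast markers (14 genes) were at 242 to 1019 CPM in WT and 112 and 281 CPM in KO at S3. Since these are bulk samples, fewer cells of a type and less RNA per cell cannot be told apart.

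In the mm39 build (GRCm39), *Cbs* (ENSMUSG00000024039.16) lies on chromosome 17 from 31827868 to 31856212 and *Cth* (ENSMUSG00000028179.13) on chromosome 3 from 157599885 to 157630714, both on the minus strand. *Gclc* lies on chromosome 9 from 77661817 to 77701767 and *Gclm* on chromosome 3 from 122039206 to 122064381, both on the plus strand, and the minus-strand gene *Gss* on chromosome 2 from 155405101 to 155434730. *Gsr* lies on chromosome 8 from 34142551 to 34188191, *Gpx1* on chromosome 9 from 108216102 to 108217542 and *Gpx4* on chromosome 10 from 79883000 to 79892273, all on the plus strand. *Chac2* lies on chromosome 11 from 30926707 to 30936350 and *Ggct* on chromosome 6 from 54959565 to 54969935, both on the minus strand. Reads were counted over exons without regard to strand. Exons of other genes, *Acss2* and the antisense *Gssos1* and *Gssos2*, cover 18.6% of the exonic bases of *Gss*, and *Gm17494* and *Gm6061* cover 8.58% of those of *Gclm*. *Gpx4* has 2 named pseudogenes. Reads that fit several genes were not counted, so the levels of these 3 genes are less certain.

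The first question was how strongly S1 and S3 erythroblasts express each step. *Gpx1*, the abundant cytosolic glutathione peroxidase, led at both stages, with 1270 ± 230 CPM per kilobase of exon in WT S1 and 19407 ± 1946 in WT S3 (SD, n = 4), and it ranked 5 among all 55416 genes on this scale at both. *Gpx4*, the peroxidase that repairs lipid peroxides in membranes, followed with 200.3 ± 45.4 CPM per kilobase at S1 and 688 ± 80.8 at S3. At S3 *Chac2*, a cytosolic enzyme that degrades glutathione, came next at 488 ± 49.3 CPM per kilobase and *Gclm* at 326 ± 46.5, and the WT libraries of these first 4 genes did not overlap with those of their neighbours. *Gclc* (119 ± 22.2 CPM per kilobase) and *Gsr*, glutathione reductase (103.6 ± 18.8), overlapped in level at S3.

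The transsulfuration enzymes stood at the other end of that order. *Cth* had 1.87 ± 0.359 CPM per kilobase in WT S1 and 1.87 ± 0.281 in WT S3, and *Cbs* had 0.0400 ± 0.0190 and 0.0765 ± 0.0634. *Cbs* was close to the detection limit, with 5 to 17 raw counts per WT library at S1 and 3 to 28 at S3. *Ggct*, the cyclotransferase that acts on the γ-glutamyl amino acids left after glutathione breakdown, overlapped with *Cth* at S1 (1.96 ± 0.616 CPM per kilobase) and with *Cbs* at S3 (0.173 ± 0.0857). The place of *Gss* depends on the gene length used: it was 67.8 CPM per kilobase of all its exons in WT S3, below *Gsr*, and 204 per kilobase of its canonical transcript, above *Gclc*. That second length was chosen after the data were seen.

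**Figure D1:**
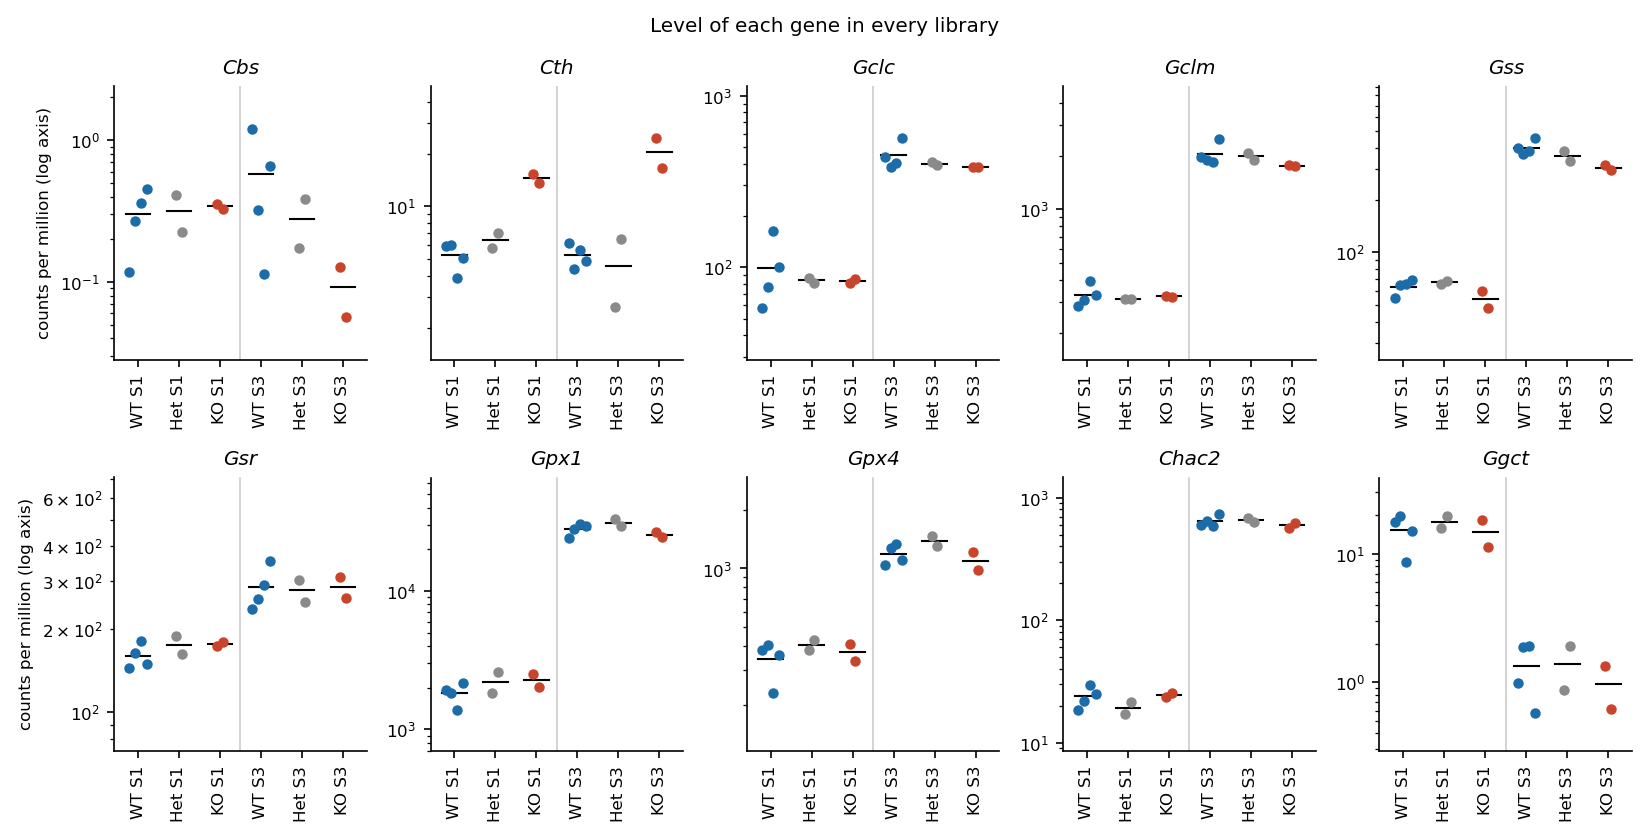
Level of each of the 10 genes in every library, in TMM-normalized CPM on a log axis, with 1 point per embryo, the group mean as a bar and S1 to the left and S3 to the right of the grey line. *Cth* is the only panel in which both KO libraries sit above all WT libraries at both stages (13.6 and 15.3 CPM at S1, 16.7 and 24.6 CPM at S3), whereas *Chac2*, *Gpx1*, *Gclm*, *Gclc* and *Gss* separate by stage in every genotype.

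The second question was how these genes change as erythroblasts mature. From S1 to S3 in WT, 7 of the 10 genes rose and 1 fell, called where edgeR's quasi-likelihood test, adjusted over all genes, gave p under 0.05. The background was wide, since 65.6% of all genes tested were called, 30.6% higher and 35.0% lower. The 8 called genes also did not overlap between the stages, which held for 28.6% of all genes in the higher and 32.0% in the lower direction. The median log2 fold difference was 1.99 over the 10 genes and -0.08 over all genes. The 7 that rose cover glutathione synthesis (*Gclc*, *Gclm*, *Gss*), recycling and use (*Gsr*, *Gpx1*, *Gpx4*) and *Chac2*. All values that follow for stages are log2 fold differences, S3 over S1.

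Among the synthesis enzymes, *Gclc* had 57.7, 77.0, 100.3 and 163 CPM in WT S1 and 384, 403, 439 and 569 CPM in WT S3. Its stages did not overlap in WT, and its log2 fold difference was 2.19 (standard error 0.28, edgeR adjusted p = 7.03e-05, n = 4 and 4). *Gclm* was at 283 to 394 CPM in S1 and 1836 to 2480 CPM in S3, a difference of 2.65 (standard error 0.16, edgeR adjusted p = 7.03e-07). *Gss* was at 54.4 to 69.1 CPM in S1 and 369 to 453 CPM in S3, a difference of 2.66 (standard error 0.14, edgeR adjusted p = 3.52e-07). For all 3 genes every WT S3 library lay above every WT S1 library.

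Of the genes that recycle and use glutathione, *Gpx1* rose most, from 1383 to 2173 CPM in WT S1 to between 24001 and 30315 CPM in WT S3, which is 15.2-fold (log2 3.93, standard error 0.22, edgeR adjusted p = 4.89e-07). *Gpx4* was at 231 to 406 CPM in S1 and 1039 to 1329 CPM in S3 (log2 1.78, standard error 0.21, edgeR adjusted p = 3.49e-05). *Gsr* moved least of the 7, from 144 to 181 CPM in S1 to between 236 and 355 CPM in S3 (log2 0.84, standard error 0.15, edgeR adjusted p = 6.59e-04). The stages did not overlap for any of these 3 genes in WT.

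*Chac2* and *Ggct* moved in opposite directions. *Chac2* had 18.7, 22.0, 25.2 and 29.8 CPM in WT S1 and 584, 603, 649 and 729 CPM in WT S3. This was a 27.0-fold rise (log2 4.75, standard error 0.18, edgeR adjusted p = 1.78e-07), the largest of the 10 genes. *Ggct* had 8.63, 14.97, 17.6 and 19.6 CPM in WT S1 and 0.579, 0.987, 1.88 and 1.91 CPM in WT S3. It fell by 3.47 on the log2 scale (standard error 0.40, edgeR adjusted p = 3.22e-05), with every S3 library below every S1 library. The neutrophil markers also fell between these libraries, as given above, and their part in the fall of *Ggct* was not tested. At S1, WT embryos 0, 1, 5 and 8 had 14.97, 17.6, 19.6 and 8.63 CPM of *Ggct*. Their neutrophil sums were 196, 1280, 1105 and 120 CPM. Het embryos 3 and 4 had 15.9 and 19.5 CPM of *Ggct*, with sums of 1535 and 1520 CPM. KO embryos 2 and 9 had 18.2 and 11.3 CPM, with sums of 1573 and 1651 CPM.

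The transsulfuration genes were not called between the stages. *Cth* had 3.88, 5.07, 5.95 and 6.03 CPM in WT S1 and 4.36, 4.85, 5.58 and 6.14 CPM in WT S3. The stages overlapped, and the log2 fold difference was 0.00 (95% interval -0.51 to 0.51, edgeR adjusted p = 0.999). *Cbs* had a difference of 0.94 (95% interval -0.53 to 2.42, edgeR adjusted p = 0.233), with 0.117 to 0.450 CPM in S1 and 0.115 to 1.20 CPM in S3. That interval still includes a rise of *Cbs* by several fold.

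In KO embryos, 7 of 9 genes tested rose from S1 to S3 and 1 fell, beside 24.7% and 28.4% of all genes (53.0% in either direction). In Het embryos also 7 of 9 rose and 1 fell, beside 36.3% and 39.6% (75.9% in either direction). In both genotypes these 8 genes did not overlap between the stages, which held for 36.5% of all genes in the higher and 41.4% in the lower direction in KO, and for 42.3% and 45.1% in Het. The genes that rose and fell were those of WT in both. *Chac2* rose by 4.57 in KO (standard error 0.18) and 5.10 in Het (standard error 0.15), and *Gpx1* by 3.48 (standard error 0.24) and 3.82 (standard error 0.21). *Gclc* rose by 2.19 in KO and 2.26 in Het, *Gclm* by 2.43 and 2.68, and *Gss* by 2.49 and 2.42. *Gpx4* rose by 1.54 in KO and 1.77 in Het, *Gsr* by 0.67 and 0.65, and *Ggct* fell by 3.94 and 3.65. *Gsr* was the least firm of these: its adjusted p in KO was 0.0164 in edgeR, 0.0537 with upper-quartile normalization and 0.168 without KO embryo 2, and in Het it was 0.105 without embryo 3 and 0.0789 without embryo 4. Leaving out an embryo there sets 1 library against 1, and the spread was taken from the other groups, on the assumption that the lone libraries vary like them.

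*Cth* had a log2 fold difference between stages of 0.49 in KO (95% interval -0.12 to 1.11, edgeR adjusted p = 0.147) and -0.48 in Het (95% interval -1.06 to 0.10, edgeR adjusted p = 0.123). In KO both S3 libraries (16.7 and 24.6 CPM) lay above both S1 libraries (13.6 and 15.3 CPM), while the Het stages overlapped. In the fit with the embryo as a replicate block, *Cth* was higher at S3 in KO (0.47, adjusted p = 0.0267) and lower at S3 in Het (-0.57, adjusted p = 0.0270). That fit called 4294 genes higher and 4857 lower of 13446 in KO, and 4811 higher and 5227 lower of 13085 in Het. The Het value leans on embryo 3, which had 2.62 CPM at S3 against 6.47 CPM in embryo 4.

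**Figure D2:**
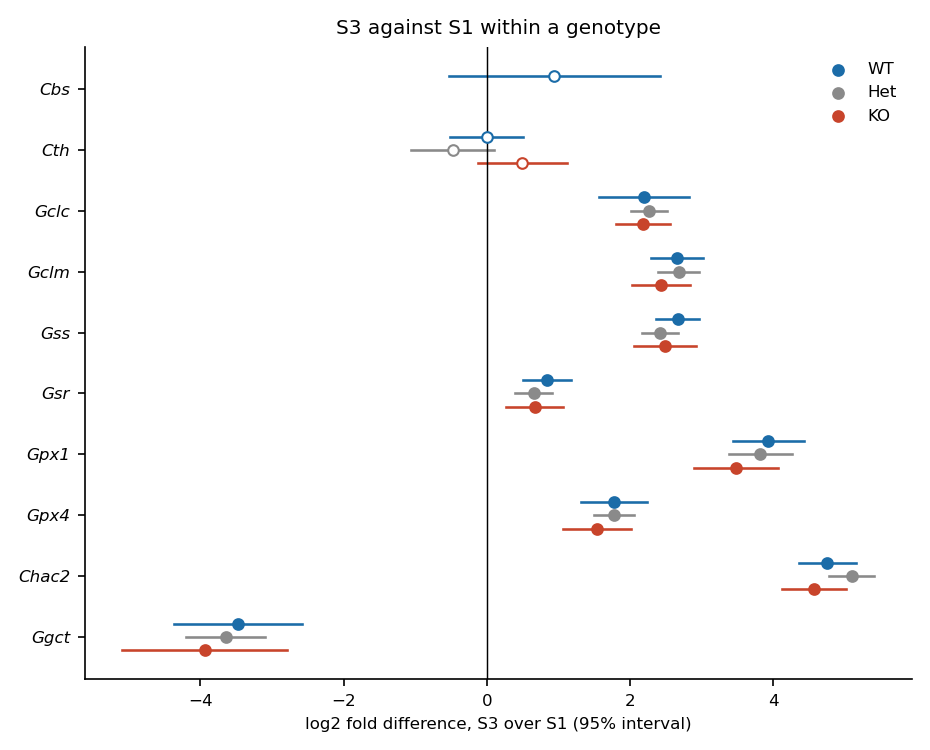
Log2 fold difference of S3 over S1 for each gene within WT, Het and KO, with its 95% interval from edgeR. Filled points passed an adjusted p of 0.05 over all genes. *Chac2* lies farthest to the right in all genotypes (4.75, 5.10 and 4.57 in WT, Het and KO), *Ggct* is the only gene to the left of 0 with a filled point, and *Cth* and *Cbs* have open points.

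Ratios within a library do not depend on how libraries are scaled, and 3 were compared between the stages of the same embryo by a two-sided exact sign-flip permutation test, adjusted over the 3 ratios. The ratio of the modifier to the catalytic subunit of glutamate-cysteine ligase, *Gclm* to *Gclc*, was 2.11 per kilobase in WT S1 (range 1.44 to 2.94) and 2.75 in WT S3 (2.61 to 2.97). Its log2 value rose by 0.35 ± 0.25 (SD, n = 8 embryos) and was higher at S3 in 8 of 8 embryos (exact permutation p = 0.00781, adjusted p = 0.0117). The ratio of *Gpx4* to *Gpx1* dropped from 0.156 in WT S1 to 0.0354 in WT S3. Its log2 value changed by -2.07 ± 0.18 and was lower at S3 in 8 of 8 embryos (exact permutation p = 0.00781, adjusted p = 0.0117). That p is the smallest that 8 embryos can give.

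The ratio of *Cth* to *Cbs* had no common direction. Its log2 value changed by 0.08 ± 1.49 (SD, n = 8 embryos), upwards in 3 embryos and downwards in 5 (exact permutation p = 0.891, adjusted p = 0.891). The 2 KO embryos had ratios of 108 and 112 at S1 and 416 and 528 at S3. The WT ratios spread from 28.0 to 124 in S1 libraries and between 13.503 and 112 in S3 libraries, so the KO libraries overlapped with WT at S1 and lay above WT at S3. These ratios rest on 1 and 2 raw counts of *Cbs* in the KO S3 libraries.

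**Figure D3:**
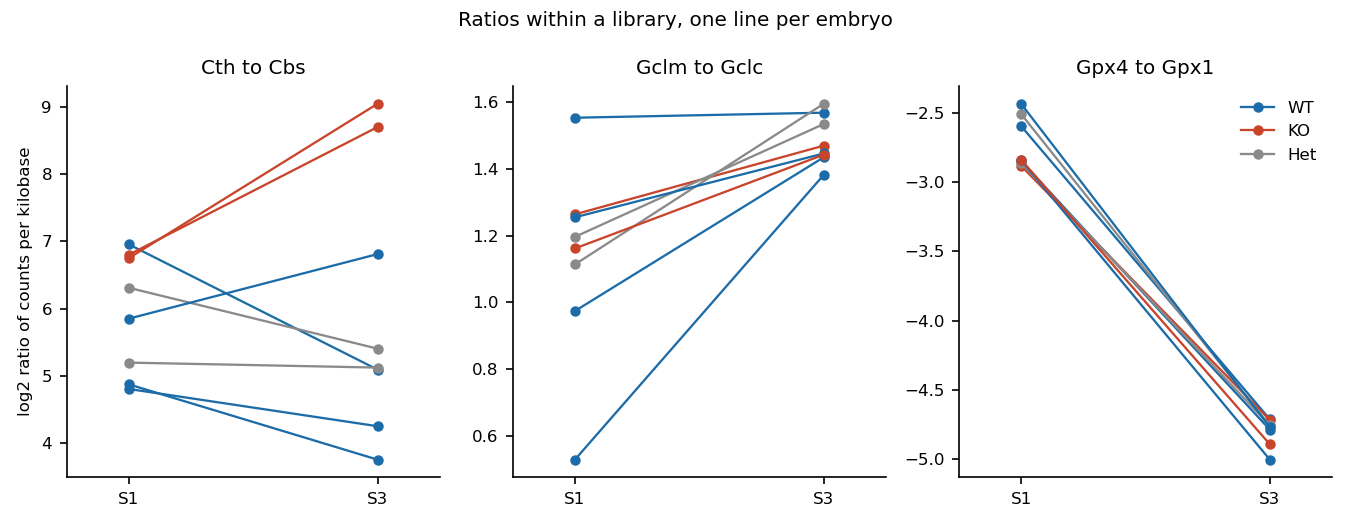
Log2 ratio of counts per kilobase within each library at S1 and S3, with 1 line per embryo coloured by genotype. *Gclm* to *Gclc* rises and *Gpx4* to *Gpx1* falls in all 8 embryos (mean changes 0.35 and -2.07), while *Cth* to *Cbs* rises in 3 and falls in 5.

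The third question was which of these genes differ without *Nprl3*. At S3, 9 of the 10 genes passed the limit on mean count (*Cbs* did not), and 1 of the 9, *Cth*, was called, higher in KO. Over all genes tested at S3, 0.559% were called in either direction and 0.457% higher in KO. The median log2 fold difference, KO over WT, was -0.12 over the 9 genes and 0.01 over all genes.

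*Cth*, which releases cysteine from cystathionine, had 4.36, 4.85, 5.58 and 6.14 CPM in WT S3 and 16.7 and 24.6 CPM in KO S3. Both KO libraries lay above all WT libraries, and the difference was 3.97-fold (log2 1.99, standard error 0.22, 95% interval 1.49 to 2.49, edgeR adjusted p = 0.0133, n = 2 and 4). Without WT embryo 8 the log2 fold difference was 1.93 and the edgeR adjusted p 0.0554. In the other fits that left out a WT embryo the adjusted p was at most 0.0489. A fit that left out a KO embryo held a lone KO library, which was assumed to vary like WT. Sex as a covariate left the difference at 1.98 (edgeR adjusted p = 3.46e-04). Hepatocytes are rich in *Cth*, and the summed hepatoblast markers were at 112 and 281 CPM in these KO libraries and at 242 to 1019 CPM in WT. The summed macrophage markers (14 genes) were at 26.2 and 40.9 CPM in KO and 53.9 to 109 CPM in WT. The part of these cells, and of the lower erythroid sums in KO at S3, in the differences at S3 was not tested.

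At S1, all 10 genes were tested and 0 were called, beside 0.00712% of all genes, which was *Nprl3* alone; 355 genes had an unadjusted p under 0.05. *Cth* had 3.88, 5.07, 5.95 and 6.03 CPM in WT S1 and 13.6 and 15.3 CPM in KO S1. It was the only one of the 10 genes whose groups did not overlap; KO lay above WT in 6.58% of all genes and below it in 3.26%. The difference was 2.77-fold (log2 1.47, standard error 0.25, 95% interval 0.89 to 2.05, unadjusted p = 4.51e-04, edgeR adjusted p = 0.641). DESeq2 called it (log2 1.47, adjusted p = 3.28e-04) among 37 genes higher and 8 lower of 14039, and over the alternatives of the edgeR fit the adjusted p ran from 0.0732 to 1.00. Neutrophil sums were also higher in KO than in WT at S1, as given above. Of those genes *Mpo* (1190 and 1228 CPM against 98.0 to 902 CPM) and *Ctsg* lay above WT, and the others overlapped. Macrophage sums were 71.4 and 73.4 CPM against 34.4 to 57.9 CPM. Of those genes *Lyz2* (45.3 and 52.0 CPM against 9.90 to 37.4 CPM) and *Csf1r* lay above WT. *Marco* lay below WT (0.328 and 0.381 CPM against 0.586 to 2.64 CPM), and the others overlapped or had no count. The Het S1 libraries, with neutrophil sums of 1520 and 1535 CPM, had 5.72 and 7.01 CPM of *Cth*. The study's antibody panel for foetal liver erythroid cells lists CD11b and Gr1, which mark myeloid cells, while the sort of these samples is described by Ter119 and CD71 alone. The part of neutrophils and macrophages in the difference was not tested.

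Whether the KO effect on *Cth* differed between stages was tested in 1 fit of both stages with an interaction of genotype and stage. The log2 effect was 0.51 larger at S3 (standard error 0.35, 95% interval -0.24 to 1.26, unadjusted p = 0.166, edgeR adjusted p = 1.00). *Cbs*, which feeds *Cth*, had an interaction of -2.80 (standard error 1.30, unadjusted p = 0.0482, edgeR adjusted p = 1.00), with 0.328 and 0.357 CPM in KO S1 and 0.0565 and 0.127 CPM in KO S3. None of the 10 genes passed over all genes, beside 0.00742% of all genes, which was again *Nprl3* alone; 420 genes had an unadjusted p under 0.05.

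The synthesis enzymes downstream of cysteine were not called. *Gss*, which completes glutathione, had 369, 384, 397 and 453 CPM in WT S3 and 299 and 316 CPM in KO S3. Both KO libraries lay below all WT libraries, with a log2 fold difference of -0.37 (95% interval -0.68 to -0.06, unadjusted p = 0.0246, edgeR adjusted p = 0.443). DESeq2 with sex as a covariate called it (-0.38, adjusted p = 0.0112), in a fit that called 308 genes higher and 422 lower of 11804. *Gclm* was likewise lower in both KO libraries, 1748 and 1774 CPM against 1836 to 2480 CPM in WT, with a difference of -0.21 (95% interval -0.57 to 0.16, edgeR adjusted p = 0.839). At S3 KO lay below WT without overlap in 9.35% of all genes and above it in 9.17%, against 2 and 1 of the 9 members. *Gclc* overlapped, at 383 and 385 CPM in KO and 384 to 569 CPM in WT (-0.21, 95% interval -0.62 to 0.19).

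The genes of use and breakdown overlapped between KO and WT at S3. *Gpx1* had a log2 fold difference of -0.12 (95% interval -0.49 to 0.26) with 24426 and 26631 CPM in KO, and *Gpx4* of -0.10 (95% interval -0.47 to 0.27) with 983 and 1210 CPM. *Gsr* had 0.01 (95% interval -0.41 to 0.44) and *Chac2* -0.10 (95% interval -0.42 to 0.22). *Ggct*, at about 1 CPM, had -0.47 with an interval from -1.79 to 0.84, which does not exclude a change of over 2-fold. For the other 4 genes the intervals bound the difference to less than 0.50 on the log2 scale in either direction. At S1 the 9 genes other than *Cth* lay between -0.24 (*Gclc*) and 0.31 (*Gpx1*), all with an edgeR adjusted p of 1.00.

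**Figure D4:**
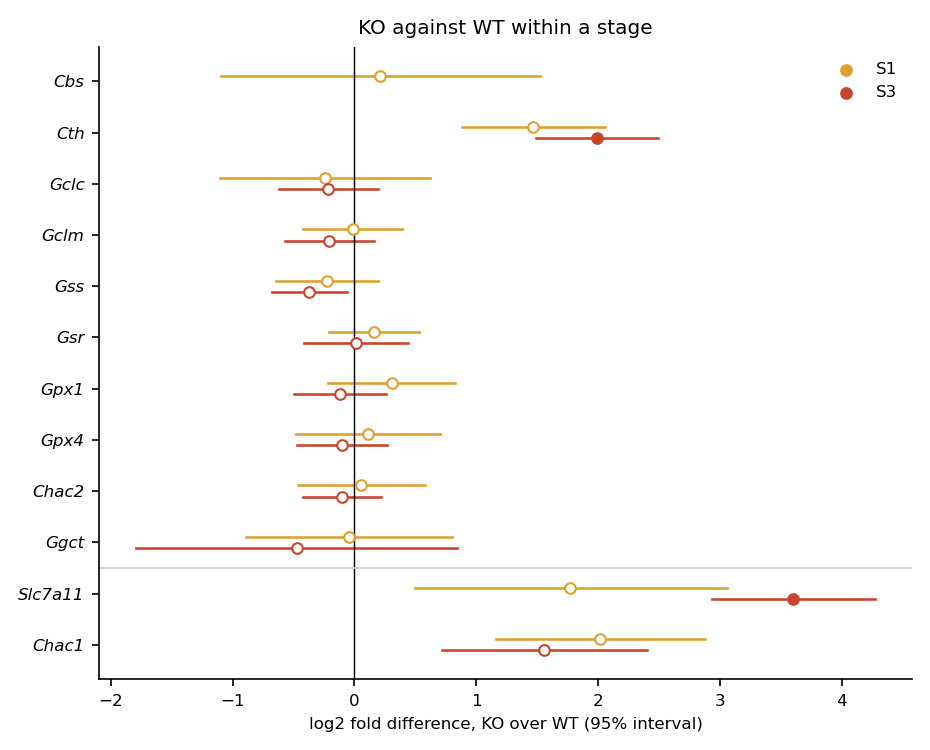
Log2 fold difference of KO over WT at S1 and at S3, with its 95% interval from edgeR, for the 10 genes and, under the grey line, *Slc7a11* and *Chac1*. Filled points passed an adjusted p of 0.05 over all genes; among the 10 genes only *Cth* at S3 (1.99) is filled, and *Slc7a11* at S3 (3.60) lies farthest to the right. *Cbs* has no S3 point because it was not tested there.

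In heterozygotes none of the 10 genes was called, at S3 (9 tested) or S1 (10 tested), and 0.0% of all genes were. Without adjustment, 373 genes at S3 and 589 at S1 had p under 0.05 in edgeR, and all tested members overlapped between Het and WT. Among all genes, Het lay above WT without overlap in 6.96% and below it in 6.25% at S3, and in 10.6% and 8.21% at S1. *Cth* had 2.62 and 6.47 CPM in Het S3 and a log2 fold difference from WT of -0.21 (95% interval -0.98 to 0.56), and at S1 a difference of 0.27 (95% interval -0.35 to 0.90). The other members lay between -0.17 (*Gss*) and 0.21 (*Gpx4*) at S3 and between -0.32 (*Chac2*) and 0.26 (*Gpx1*) at S1. Both Het embryos were male, so sex and genotype are partly confounded here. With sex as a covariate, DESeq2 called *Gpx4* at S3 (0.37, adjusted p = 0.00514), 1 of 9 members, in a fit that called 1171 genes higher and 977 lower of 11746. The edgeR fit with sex called 1038 genes higher and 1086 lower at S3, and 183 and 214 of 13818 at S1. At S1 DESeq2 called 0 genes higher and 30 lower, and with sex 332 higher and 483 lower.

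The other genes of the pathway were taken from 10 lists of 91 genes in all. In KO against WT at S3, 71 of the 91 were tested, 1 was higher and 0 were lower, beside 0.457% and 0.102% of all genes. The gene was *Slc7a11*, the cystine carrier of the exchanger that imports cystine for glutathione synthesis. It had 0.964, 1.07, 1.59 and 1.97 CPM in WT S3 and 14.9 and 18.6 CPM in KO S3. The groups were well apart, and the log2 fold difference was 3.60 (standard error 0.29, edgeR adjusted p = 0.00428). Its partner chain *Slc3a2* had 0.18 (standard error 0.13, edgeR adjusted p = 0.828).

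*Chac1*, the stress-induced relative of *Chac2* that also degrades glutathione, had 3.40, 3.44, 6.42 and 8.88 CPM in WT S3 and 13.97 and 18.6 CPM in KO S3. KO lay above WT, and the log2 fold difference was 1.56 (standard error 0.37, edgeR adjusted p = 0.163). DESeq2 called it (1.55, adjusted p = 0.00732) among 144 genes higher and 115 lower, as did edgeR with sex as a covariate (1.54, adjusted p = 0.0177) among 285 higher and 262 lower. At S1 none of 72 tested genes of these lists was called, beside 0.00712% of all genes. *Chac1* had 0.293 to 0.575 CPM in WT S1 and 1.52 and 1.86 CPM in KO S1 (log2 2.02, edgeR adjusted p = 0.641), and *Slc7a11* 0.149 to 0.750 CPM in WT S1 and 1.74 and 1.79 CPM in KO S1 (log2 1.77, edgeR adjusted p = 1.00). For these genes, as for *Cth*, both KO libraries thus lay above all WT libraries at both stages, which held at S3 for 9.17% and at S1 for 6.58% of all genes. *Slc7a11* and *Chac1* were named for their small p in this contrast.

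**Figure D5:**
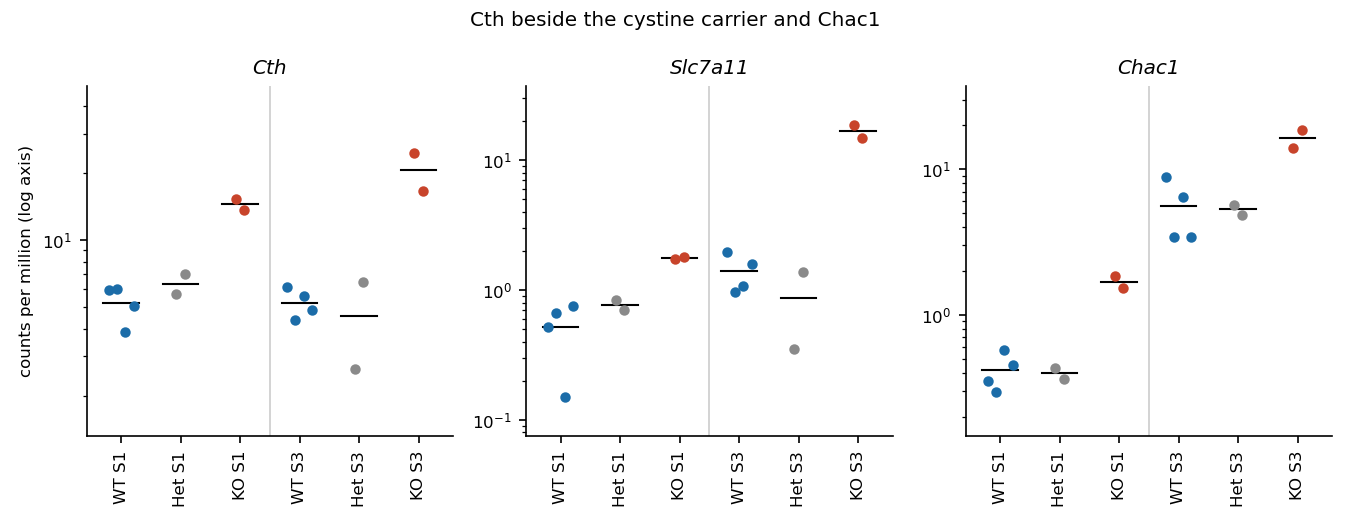
*Cth*, *Slc7a11* and *Chac1* in every library, in CPM on a log axis, with 1 point per embryo and the group mean as a bar. In all panels both KO libraries lie above all WT libraries at S1 and at S3. *Cth* is level between stages in WT (mean 5.23 CPM at both), whereas *Chac1* is higher at S3 in every genotype.

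The 250 bases before the start sites of these 3 genes are printed because KO lay above WT for each of them at both stages, with those of *Gclm* for comparison, each in its own 5′ to 3′ direction. They were read from GRCm39 at the GENCODE canonical starts. Letters in capitals mark matches on either strand to a short motif: CACGTG (E-box) in *Cth*, TGATGNAA (the element bound by ATF4 with C/EBP partners) in *Slc7a11* and *Chac1*, and TGACNNNGC (the core of the antioxidant response element bound by NRF2) in *Gclm*.
Cth, chr3:157630720-157630969, minus strand: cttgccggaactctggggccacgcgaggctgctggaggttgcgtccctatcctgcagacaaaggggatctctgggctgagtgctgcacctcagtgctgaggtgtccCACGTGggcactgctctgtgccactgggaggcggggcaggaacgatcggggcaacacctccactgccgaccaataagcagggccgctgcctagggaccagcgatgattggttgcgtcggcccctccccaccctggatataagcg
Slc7a11, chr3:50398064-50398313, minus strand: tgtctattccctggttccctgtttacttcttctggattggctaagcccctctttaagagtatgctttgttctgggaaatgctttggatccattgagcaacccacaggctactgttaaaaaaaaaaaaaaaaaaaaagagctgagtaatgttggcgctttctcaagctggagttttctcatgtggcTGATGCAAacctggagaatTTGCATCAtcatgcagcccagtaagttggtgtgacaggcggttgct
Chac1, chr2:119181439-119181688, plus strand: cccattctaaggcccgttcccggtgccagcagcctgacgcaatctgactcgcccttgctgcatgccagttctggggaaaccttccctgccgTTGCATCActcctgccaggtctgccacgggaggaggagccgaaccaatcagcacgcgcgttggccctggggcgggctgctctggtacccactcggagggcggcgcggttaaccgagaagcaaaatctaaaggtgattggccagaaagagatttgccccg
Gclm, chr3:122038876-122039125, plus strand: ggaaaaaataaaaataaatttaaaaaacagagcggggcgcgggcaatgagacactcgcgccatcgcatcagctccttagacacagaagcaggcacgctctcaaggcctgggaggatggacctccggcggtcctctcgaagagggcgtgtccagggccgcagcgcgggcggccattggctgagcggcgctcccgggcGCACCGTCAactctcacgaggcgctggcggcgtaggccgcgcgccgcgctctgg

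The windows searched ran from 250 bases before to 50 bases after the start of 21770 genes. TGATGNAA was found in 3.84% of these promoters and in 0 of the 10 members, but at -65 and -46 in *Slc7a11* and at -159 in *Chac1*, counted from the start site. *Cth* thus holds none of these letters in its window and has CACGTG at -144, which 7.81% of promoters hold and which *Cbs* also has, at -196. TGACNNNGC was found in 12.5% of promoters and in 2 members, *Gclm* at -54 and *Ggct* at -84, which moved in opposite directions between the stages. AGATAA, the letters bound by GATA factors, was found in 10.6% of promoters and in 0 members. CCNCNCCC, bound by KLF factors, was found in 54.6% of promoters and in 7 of the 10 members. A match describes the letters of this window and says nothing of binding.

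From S1 to S3 in WT, 74 of the 91 other pathway genes were tested, 31 rose and 24 fell, with a median log2 fold difference of 0.13, beside 30.6% of all genes higher and 35.0% lower. The counts for each list below stand against the same shares. *Slc25a39*, which carries glutathione into mitochondria, rose most firmly, from 165 to 195 CPM in S1 to between 2652 and 3171 CPM in S3 (log2 4.04, standard error 0.15, edgeR adjusted p = 1.78e-07). *Mgst3*, a microsomal glutathione transferase, rose by 4.38 and *Hagh*, the glyoxalase that releases glutathione from its lactate adduct, by 3.11. Among the glutathione transferases 11 of 21 tested genes rose and 3 fell, and among glutaredoxins and glyoxalases 5 of 8 rose and 3 fell. Of the 5 genes for glutathione transport, 2 rose, *Slc25a39* among them, and 2 fell.

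Supply of the substrates was mixed. Both tested genes for cystine uptake rose in WT, *Slc3a2* by 1.82 and *Slc7a11* by 1.43 (edgeR adjusted p = 0.0252, and 0.0651 without WT embryo 0). *Mat2a*, which makes S-adenosylmethionine upstream of homocysteine, fell by 1.69, and of 10 tested genes of the methionine cycle 3 rose and 3 fell. *G6pdx*, a source of the NADPH that *Gsr* uses, rose by 1.39, while 4 of 6 genes for NADPH supply fell. *Sephs2*, needed to make the selenocysteine of *Gpx1* and *Gpx4*, fell by 1.09, as 4 of 7 genes for selenocysteine incorporation fell and 1 rose. In sulfide oxidation 4 of 8 genes rose and 1 fell, with *Mpst* up by 2.39, and of the other breakdown genes 1 of 6 rose (*Chac1*, by 3.73) and 4 fell, with *Lap3* down by 2.51 (log2 -2.51). Of the other peroxidases only *Gpx3* was tested, at -0.53 (edgeR adjusted p = 0.257).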

How the data were processed

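Reads were aligned to mm39 with STAR 2.7.9, and the authors deposited raw counts per gene from featureCounts 1.6.4 on the Ensembl annotation. Per the file headers, read pairs were counted without strand, and those with several alignments or several overlapping genes were not counted. The RNA was amplified before the polyA-enriched libraries were made, so counts are not independent molecules. Symbols came from GENCODE mouse release 39, which names 54749 of the 55416 genes. There were 4 further library columns that belong to no sample used here, and they were left out.

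After TMM normalization, edgeR 4.0.16 in R 4.3.3 (glmQLFit and glmQLFTest) was run over all genes with a mean normalized count above 10 in the libraries compared, with Benjamini-Hochberg adjustment over all genes tested and a threshold of 0.05. The standard error is the fold change divided by the root of the F statistic. CPM used TMM factors over all 16 libraries, and CPM per kilobase used the merged exon length of the count table. Ratios added 0.5 to each count. Alternatives were DESeq2 1.42.0, other scalings, no filter, the newer quasi-likelihood method, sex as a covariate, all libraries in the fit, the embryo as a block, and leaving out each embryo in turn. The tests were checked on simulated data, in which some genes were changed by 2 on the log2 scale. For KO against WT at S3, 184 of 200 such genes were recovered, with 19 false calls. For KO against WT at S1, 144 of 199 were recovered, with 11 false calls.

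The members and lists were chosen with earlier results of these data known. All 10 members are named, with *Nprl3* as the targeted gene. Of the other lists, the named genes are the 3 with the smallest p in each of KO against WT at S3, KO against WT at S1 and S3 against S1 in WT, and the gene of each list with the smallest p between the stages in WT. Values of these genes in other comparisons are given for context. Replicates are separate embryos. An embryo gave both its S1 and its S3 library, so equal numbers mark the same animal. Deviations from the group means correlated between an embryo's libraries, over 13402 genes, at 0.0505, 0.290, 0.407 and 0.409 for WT embryos 0, 1, 5 and 8, at 0.534 in KO and at 0.0689 in Het. The library totals were 20666044 to 37609502 counts, and depth limits the precision for *Cbs* and *Ggct*, which had low counts.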

Additional observations from a re-analysis of the deposited data

How the results depend on the processing

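Groups of 2 embryos limit these results, and *Cbs*, with 1 to 28 raw counts per library, could only have shown large changes. Another scaling moves the stage comparisons as a whole: the median log2 fold difference of all genes in WT was -0.08 with TMM and -0.24 with upper-quartile normalization, and *Cth* then moved from 0.00 to -0.18. The 7 genes that rose and the 1 that fell in WT were called in each alternative run.

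The number of the 10 genes called at S3 in KO against WT was 1, which became 2 when DESeq2 was run with the sex covariate (*Gss* added), a fit that called 308 genes higher and 422 lower against 54 and 12, and ranged from 0 to 1 over the fits that left out an embryo. At S1 it was 0, and 1 (*Cth*) with DESeq2, with or without sex as a covariate. In Het at S3 it was 0, and 1 (*Gpx4*) with DESeq2 and sex as a covariate, which called 1171 genes higher and 977 lower. Without sex, 0 genes were called in edgeR and 1 in DESeq2, and edgeR with sex called 1038 higher and 1086 lower. With the embryo as a replicate block, 9 genes were called between stages in KO and 9 in Het, against 8 in each without it, *Cth* being added in both at 0.47 and -0.57, while 4294 genes were called higher and 4857 lower in KO and 4811 and 5227 in Het, and no other call on the 10 genes changed. In Het, *Cth* was also called lower at S3 without the filter on low counts (-0.60), with upper-quartile normalization (-0.63) and without embryo 4 (-1.13), which sets 1 library against 1 with the spread taken from the other groups.

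Directions turned for these values, none of which was called. The *Cth* to *Cbs* ratio changed by -0.0246 with a pseudocount of 1, and between -0.24 and 0.36 over the fits that left out an embryo. In KO against WT at S3, *Gsr* was at -0.0224 with upper-quartile normalization and between -0.13 and 0.14 without an embryo, and *Gpx4* between -0.27 and 0.0478. At S1 *Gclc* lay between -0.42 and 0.0864. *Cth* in Het at S3 lay between -1.01 and 0.30. *Cth* between stages in WT was at -0.0330 without the filter, -0.18 with upper-quartile normalization, and between -0.0954 and 0.16 without an embryo. The cause of these changes was not tested.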

Other observations

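*Hpgds*, a cytosolic glutathione transferase that makes prostaglandin D2, was the gene of the 91 with the lowest difference at S3. It had 1.74 to 3.71 CPM in WT S3, 1.46 and 1.48 CPM in Het S3 and 0.226 and 0.571 CPM in KO S3, a log2 fold difference of -2.75 between KO and WT (standard error 0.52, edgeR adjusted p = 0.0737). It was called by DESeq2 (-2.78, adjusted p = 3.44e-04) and by edgeR with all 16 libraries (-2.77, adjusted p = 0.00776). The summed macrophage markers (14 genes) were at 53.9 to 109 CPM in WT S3 and 26.2 and 40.9 CPM in KO S3. At S1 *Hpgds* had 0.809 to 1.38 CPM in WT and 0.428 and 0.472 CPM in KO. The macrophage sums there were 34.4 to 57.9 CPM in WT and 71.4 and 73.4 CPM in KO. The part of macrophages in the difference of *Hpgds* was not tested.

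*Idh1*, a cytosolic source of NADPH, had 19.7 to 30.7 CPM in WT S1 and 45.8 and 49.0 CPM in KO S1 (log2 0.91, standard error 0.25, edgeR adjusted p = 1.00), and the genotypes overlapped at S3, with 13.6 to 19.1 CPM in WT and 12.8 and 17.2 CPM in KO.

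Within WT at S1, embryos 0 and 8 had *Gclc* at 100.3 and 163 CPM and embryos 1 and 5 at 57.7 and 77.0 CPM. The same 2 embryos had the higher sums of erythroid markers, 3266 and 3612 CPM against 1497 and 1806 CPM, the higher sums of hepatoblast markers, 377 and 376 CPM against 69.1 and 86.3 CPM, and the lower sums of neutrophil markers, 196 and 120 CPM against 1280 and 1105 CPM. *Gclm* was at 329 and 394 CPM against 283 and 307 CPM, and *Gss* at 69.1 and 65.9 CPM against 54.4 and 64.9 CPM. Embryos 0 and 8 were male and embryos 1 and 5 female, so within WT sex and these marker sums cannot be told apart. The male Het embryos 3 and 4 had *Gclc* at 86.1 and 81.3 CPM at S1. Their sums were 1551 and 1524 CPM for erythroid, 51.8 and 35.1 CPM for hepatoblast, and 1535 and 1520 CPM for neutrophil markers. The part of sex and of other cells in the level of *Gclc* was not tested.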
